A study of Brassica rapa subsp. chinensis with 2 samples.

Results

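Salicylic acid is the hormone that plants use against pathogens feeding on living tissue, and the pathogenesis-related (PR) proteins are the secreted defence proteins that it switches on. In *Arabidopsis thaliana*, isochorismate synthase makes the precursor of the hormone in the plastid, EDS1 and PAD4 act as a lipase-like complex that promotes its synthesis after recognition of a pathogen, and NPR1, NPR3 and NPR4 bind the hormone and control transcription. The PR proteins fall into classes that include the small secreted PR-1 proteins, the PR-2 glucanases that cut beta-1,3-glucan, chitinases, and the thaumatin- and osmotin-like PR-5 proteins. Many glucanases and chitinase-like proteins of these families serve in cell walls, plasmodesmata or anthers and not in defence.

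The genes described here are the 152 of the 33087 genes of the deposited *Brassica rapa* table whose best protein match carries a name from this system. The names searched were pathogenesis-related, thaumatin, osmotin, chitinase, glucan endo-1,3-beta, regulatory protein NPR, PAD4, EDS1, SAG101 and isochorismate synthase, and ethylene-responsive transcription factors were left out. By name they comprised 6 isochorismate synthases, 6 EDS1 and PAD4 genes, 13 NPR genes, 12 PR-1 genes, 22 PR-5 genes, 20 chitinases and chitinase-like genes, 71 glucanases and 2 PR homeodomain genes. No gene of the table was matched to the *Arabidopsis* PR1 locus At2g14610, and the name SAG101 found 0 members because its genes carry another description.

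RNA was taken from untreated stems at the bolting stage of 2 doubled-haploid lines. ‘FT’ is a Chinese cabbage with epidermal wax, labelled the control. ‘CX001’ is a flowering Chinese cabbage with the wax-less phenotype, whose recessive locus is called *wlm1*. Each line had 3 libraries, and the labels do not say whether these came from separate plants, so p-values measure only the spread between these libraries. The lines belong to different crop types, and *wlm1*, the rest of the genome and the alignment of either line to 1 reference genome cannot be told apart as sources of a difference.

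The deposited values are means of normalized counts over the 3 libraries of a line. Each library adds its own step per read to such a mean, so that the 3 whole counts behind a mean could be solved exactly for 33032 genes. The solved libraries held 14734030 to 16533340 counts. They are called a, b and c within a line, and values are given in that order. The expression of *CER1* (*BraA09g066480.3C*), the wax gene at *wlm1*, was 14256, 16507 and 20003 normalized counts in ‘FT’ and 5.66, 11.6 and 25.7 in ‘CX001’, so these values match the line labels. Across genes, Pearson correlations of log2 values were 0.973 to 0.978 within ‘FT’, 0.951 to 0.966 within ‘CX001’ and 0.741 to 0.779 between the lines. Markers of tissues were read beside all tested genes, of which 14.5% were called higher and 16.1% lower in ‘CX001’ (criteria below). Of 17 tested xylem genes, 9 were higher in ‘CX001’ (52.9%) and 0 lower. Their summed levels per kb of coding length were 3911 to 4945 in ‘FT’ and 6537, 11573 and 14466 in ‘CX001’. Of 8 tested genes of senescing tissue, 0 were higher and 4 lower (50%), namely 2 copies each of *SAG20* and *SGR1*. The sums were 4884 to 5622 in ‘FT’ and 1325 to 2036 in ‘CX001’. For phloem, 1 and 2 of 18 were higher and lower (5.56% and 11.1%), both under the shares of all genes. For epidermis these were 0 and 2 of 11 (0% and 18.2%), the share lower being near that of all genes. For photosynthetic tissue they were 1 and 3 of 7 (14.3% and 42.9%). Among these markers, *SAG12* (2 genes) and *SAG13* (1 gene) were at 0 in ‘FT’, as were 1 gene each of *SWEET11* and *LHCB3*, and 1 *CESA8* gene was at 0 in ‘CX001’. The part of tissue make-up in the results below was not tested, and in whole stems fewer cells of a type and less RNA per cell cannot be told apart.

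A gene was tested where its mean was at least 10 in either line, on the scale of log2(normalized count + 1), with limma. It was called higher or lower where the adjusted p was under 0.05 and the log2 fold change was over 1 in size. Of the 152 members, 115 were tested, 36 lay under the minimum and 1 was not solved. In ‘CX001’, 22 members were higher, 24 were lower and 69 did not pass. The called share was 40.0% of the tested members against 30.6% of all 25938 tested genes. By direction it was 19.1% higher against 14.5%, and 20.9% lower against 16.1%. The median log2 fold change was 0.00 for the members and 0.00 for all tested genes, a median over genes called in both directions that does not describe the level of a family. The 3 libraries of ‘CX001’ lay wholly above or below those of ‘FT’ in all 46 called members. Calling on these same values favours this, so it is no separate result. Among the 69 others they lay wholly above in 10 (14.5%) and wholly below in 6 (8.7%), beside 22.5% and 19.3% of all tested genes that did not pass.

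**Figure D1:**
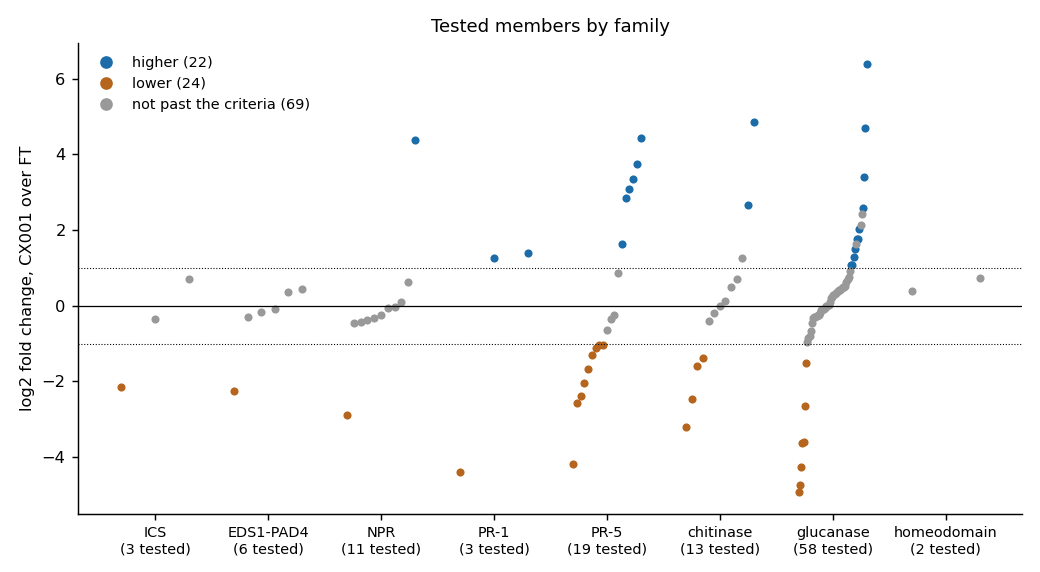
Log2 fold change of the 115 tested members, ‘CX001’ over ‘FT’, on the scale of log2(normalized count + 1), grouped by family; each point is a gene and the dotted lines mark the fold criterion. The regulator families hold 1 or 2 called genes each, whereas 15 of the 19 tested PR-5 genes are called, 6 higher and 9 lower.

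In the regulator families, 4 genes were called. Of 20 tested isochorismate synthase, EDS1, PAD4 and NPR genes, 1 was higher in ‘CX001’ (5%), 3 were lower (15%) and 16 did not pass, beside 14.5% higher and 16.1% lower among all tested genes. The share lower was thus near that of all genes. The 3 lower genes were single copies of *ICS1*, *PAD4* and *NPR3*. The 1 higher gene was *NPR6*, a developmental relative (below) and not a known regulator of the hormone.

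The main *ICS1* copy (*BraA07g028130.3C*, A07:21069421-21072691, minus strand) encodes the enzyme that makes isochorismate, from which most pathogen-induced salicylic acid is built in *Arabidopsis*. It gave 684, 789.6 and 834 normalized counts in ‘FT’ and 137, 95.5 and 399.6 in ‘CX001’. The lines did not overlap, and library c of ‘CX001’ was far above a and b. The fold was 3.65, with a log2 fold change of -2.14 ± 0.45 (SE) and an adjusted p of 0.00545. The gene supplied 98.6% ± 1.1 (SD, n = 3) of the reads per kb of its 3 copies in ‘FT’ and 88.6% ± 6.2 in ‘CX001’. *ICS2* (*BraA08g028480.3C*), the weaker relative, overlapped between the lines, with 394, 498 and 416 against 246, 361 and 442 (log2 fold change -0.35 ± 0.22, adjusted p = 0.219). The minor *ICS1* copy *BraA02g022480.3C* did not pass at 6.32 to 20.2 against 12.5 to 20.8 (adjusted p = 0.255). The other 3 isochorismate synthase genes had 0 reads in ‘FT’ and 4 to 6 reads in ‘CX001’, too few to test. Summed per kb, the family came to 775 ± 67 (SD) in ‘FT’ and 376 ± 152 in ‘CX001’.

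*PAD4* was read from 3 genes, and only 1 of them passed. *BraA09g043570.3C* (A09:33644012-33648293, plus strand) was at 1498, 1556 and 1533 in ‘FT’ and 207, 415 and 382 in ‘CX001’. This was a fall by 2.25 ± 0.25 (SE) on the log2 scale, or 4.57-fold, with an adjusted p of 0.000197, and its 3 ‘FT’ libraries were close to each other. The copy on A04 (*BraA04g006940.3C*) overlapped, at 575 to 869.7 against 455 to 896 (adjusted p = 0.826). The copy on A03 (*BraA03g046040.3C*) was at 1058 to 1491 against 1418 to 2074 (log2 fold change 0.43 ± 0.19, adjusted p = 0.0994). The share of the A09 copy among the 3 was therefore 44.6% ± 4.6 in ‘FT’ and 12.4% ± 2.5 in ‘CX001’, and that of the A03 copy 34.9% ± 2.9 and 61.9% ± 5.8. Their sum overlapped between the lines, at 2103 ± 230 against 1624 ± 402 per kb.

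None of the 3 *EDS1B* genes passed. EDS1 pairs with PAD4 or SAG101. *BraA06g018820.3C*, the most read of them, gave 2558, 1878 and 3939 in ‘FT’ and 2487, 4437 and 3627 in ‘CX001’ (log2 fold change 0.36 ± 0.30, adjusted p = 0.342). The adjacent genes *BraA01g024750.3C* and *BraA01g024760.3C* had log2 fold changes of -0.16 ± 0.17 and -0.29 ± 0.17 (adjusted p = 0.449 and 0.189), and all 3 overlapped. SAG101, which pairs with EDS1 in a complex separate from that with PAD4, was found through its gene name and is not among the 152. Its gene *BraA03g006570.3C* was at 1491 to 2007 in ‘FT’ and 949 to 1178 in ‘CX001’, and *BraA10g024340.3C* at 336 to 399.6 and 510 to 755. The ranges of both were apart, in opposite directions, with adjusted p of 0.00341 and 0.0102, but the log2 fold changes of -0.81 and 0.72 were under the minimum of 1.

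The NPR genes include the receptors of the hormone and the developmental relatives NPR5 and NPR6, which act in leaf and flower patterning in *Arabidopsis*, where they are better known as BOP proteins. *NPR1*, the activator of PR genes, was read from 3 genes, and none passed. *BraA08g019880.3C* was at 407, 412 and 417 in ‘FT’ and 296, 281 and 347 in ‘CX001’, apart but only 1.34-fold (log2 fold change -0.42 ± 0.13, adjusted p = 0.0307). *BraA01g016840.3C* and *BraA09g013710.3C* had log2 fold changes of -0.24 and -0.46 (adjusted p = 0.235 and 0.0789). The sum of the 3 *NPR1* genes per kb was 539 ± 26 (SD) in ‘FT’ and 425 ± 36 in ‘CX001’. The lines did not overlap in this sum, as in 58.4% of the matches of the whole table with at least 2 tested copies. *NPR4* (*BraA01g010960.3C*), a repressor of defence genes, was at 457 to 509 against 489 to 536 (adjusted p = 0.469). *NPR2* (*BraA01g016870.3C*) was at 101.1 to 140.2 against 167 to 219 (log2 fold change 0.64 ± 0.20, adjusted p = 0.0299), under the fold minimum.

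Of the 2 *NPR3* genes, which encode a repressor paired in function with NPR4, the minor copy *BraA02g031580.3C* (A02:21627986-21629903, plus strand) passed. It fell from 73.1, 98.2 and 32.7 in ‘FT’ to 5.66, 5.79 and 12.9 in ‘CX001’ (log2 fold change -2.88 ± 0.50, adjusted p = 0.00211). The main copy *BraA06g042710.3C* overlapped, at 223 to 299 against 177 to 243 (adjusted p = 0.128). *NPR6* (*BraA09g047810.3C*, A09:36099593-36101743, plus strand) went the other way, with 3 reads over the 3 ‘FT’ libraries and 29.3, 19.3 and 90 normalized counts in ‘CX001’. The ‘FT’ mean was 2.22% of the ‘CX001’ mean, with an exact Poisson 95% interval of 0.457% to 6.48% that covers counting error only (log2 fold change 4.39 ± 0.67, adjusted p = 0.00108). A further *NPR6* gene was read only in ‘FT’ (*BraA07g022730.3C*, 12 reads) and another only in ‘CX001’ (*BraA04g003480.3C*, 15 reads), neither of which was tested. The 3 *NPR5* genes had ‘FT’ means of 11.8 to 15.4 and ‘CX001’ means of 10.7 to 20.4, with adjusted p of 0.697 to 0.976.

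**Figure D2:**
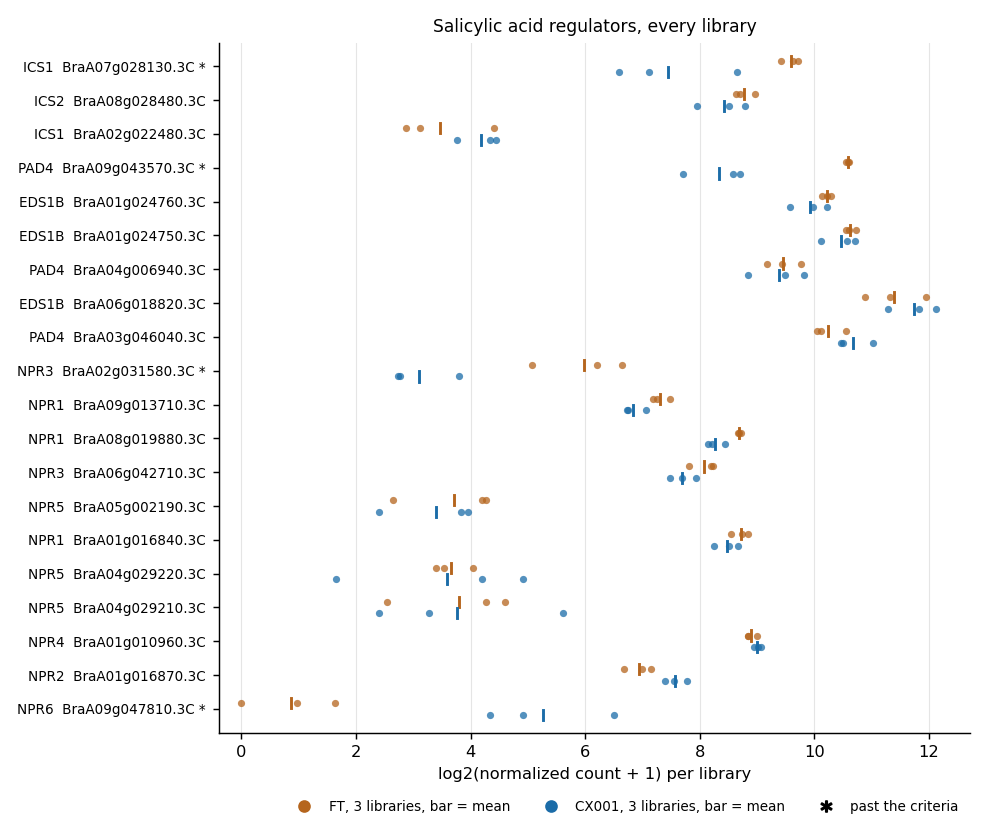
Log2(normalized count + 1) of the 20 tested genes of the regulator families, with the developmental *NPR5* and *NPR6* genes, in every library; points are libraries, bars are the means of 3 libraries and asterisks mark genes past the criteria. The *ICS1* copy on A07, the *PAD4* copy on A09 and the minor *NPR3* copy are lower in ‘CX001’, *NPR6* is higher, and the 3 *EDS1B* genes overlap.

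The PR-1 family had few expressed members, and the one with the most reads in ‘FT’ was lower in ‘CX001’. PR-1 proteins bind sterols. The classical readout of salicylic acid among them is the *Arabidopsis* gene PR1 (At2g14610), to which no gene of the table was matched. *PRB1* (*BraA03g042600.3C*, A03:21387971-21388456, minus strand), matched to the basic form of PR1 in *Arabidopsis*, gave 2063, 979 and 1871 normalized counts in ‘FT’ and 50, 69.5 and 115 in ‘CX001’. That was a 21.0-fold difference without overlap (log2 fold change -4.38 ± 0.36, adjusted p = 4.61e-05).

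The other 2 tested PR-1 genes, both matched to a protein of *Medicago truncatula*, moved in the opposite direction. *BraA08g019950.3C* rose from 230.0, 147 and 240.3 to 500.3, 490.2 and 602 (log2 fold change 1.39 ± 0.21, adjusted p = 0.00104). *BraA03g056620.3C* rose from 64.5, 85.7 and 93.8 to 239, 139 and 217 (log2 fold change 1.26 ± 0.27, adjusted p = 0.00531). In neither did the libraries of the lines overlap. The remaining 9 PR-1 genes were under the minimum in both lines. *PRB1* made up 86.4% of the PR-1 sum per kb in ‘FT’, whereas *BraA08g019950.3C* made up 63.7% in ‘CX001’. The sum was 3898 ± 1277 (SD) in ‘FT’ and 1485 ± 222 in ‘CX001’.

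The PR-5 family held called genes in both directions and a lower sum in ‘CX001’. Of 19 tested members, 6 were higher (31.6%) and 9 lower (47.4%), beside 14.5% and 16.1% of all tested genes. The family sum per kb was 28075, 29802 and 31128 in ‘FT’ and 11361, 11497 and 11214 in ‘CX001’, a ratio of 0.383 with the lines well apart.

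*PR5* itself (*BraA07g038730.3C*, A07:26582720-26583793, plus strand), matched to At1g75040, an apoplastic thaumatin-like protein that serves as a marker of salicylic acid, carried 53.8% of that sum in ‘FT’ and 24.3% in ‘CX001’. Its level was 11919.6, 10912 and 12213 in ‘FT’ and 1482, 1829.7 and 2758 in ‘CX001’. This was 5.77-fold lower (log2 fold change -2.58 ± 0.22, adjusted p = 5.71e-05). A second locus with the same match, *BraA09g056720.3C*, fell from 1158, 1475 and 1684 to 389.8, 508 and 457 (log2 fold change -1.66 ± 0.17, adjusted p = 0.000142). The short gene *BraA07g027960.3C* had 91 reads in ‘FT’ and 2 in ‘CX001’, where its mean was 2.26% of that in ‘FT’ (exact Poisson 95% interval 0.274% to 8.16%). Against these, *BraA06g014920.3C* (A06:7953446-7954349, plus strand) rose from 144, 77.0 and 40.1 to 650.3, 489 and 879 (log2 fold change 3.08 ± 0.43, adjusted p = 0.000706). Its share of the PR5 copies per kb was 0.655% ± 0.40 (SD) in ‘FT’ and 21.3% ± 4.2 in ‘CX001’, while that of the main copy was 88.1% ± 1.3 and 63.8% ± 4.4. The sum of the copies was 18110.5 ± 997 against 4288 ± 1136 per kb and lay apart between the lines.

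Further PR-5 genes were lower. The 3 tested *TLP1* genes, for thaumatin-like proteins, all passed, and the 2 larger differences were in *BraA02g042010.3C*, from 596, 432 and 597 to 116, 118 and 78.2 (log2 fold change -2.38 ± 0.22), and *BraA01g014940.3C* (-2.03 ± 0.33). The osmotin-like gene *BraA07g019090.3C*, the second most read of the family, was at 3918, 6163 and 4687 in ‘FT’ and 2474, 2377 and 1251 in ‘CX001’. Its log2 fold change of -1.31 ± 0.28 (adjusted p = 0.00569) was -0.996 without library c of ‘CX001’ and then missed the fold minimum. The pair matched to the rice locus Os11g0706600, *BraA03g000550.3C* and *BraA10g033430.3C*, passed narrowly at -1.12 ± 0.35 and -1.05 ± 0.32. For *BraA03g000550.3C* the adjusted p ranged up to 0.0954 when single libraries were left out, and the call was lost without library a or c of ‘FT’ or b or c of ‘CX001’.

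Osmotin-type and At1g18250-type genes were among those higher in ‘CX001’. The second osmotin-like gene *BraA04g020630.3C* rose from 3.85, 45.3 and 10.5 to 204, 187 and 162 (log2 fold change 3.75 ± 0.71, adjusted p = 0.00319), where its ‘FT’ libraries differed widely. *OSM34* (*BraA02g028310.3C*), osmotin in *Arabidopsis*, had 0 reads in ‘FT’ and 17.9, 21.2 and 22.5 normalized counts in ‘CX001’, at least 19.5-fold higher against a floor of 3 counts over the line. Of 4 thaumatin-like genes matched to At1g18250, 3 passed as higher, with log2 fold changes of 1.64 to 3.35, whereas the most read of them, *BraA06g013890.3C*, overlapped at 930.2 to 1304 against 629.9 to 1037. The smallest of the 3, in *BraA04g012490.3C*, missed an adjusted p of 0.05 without library b or c of ‘CX001’ (0.0576 and 0.0503).

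**Figure D3:**
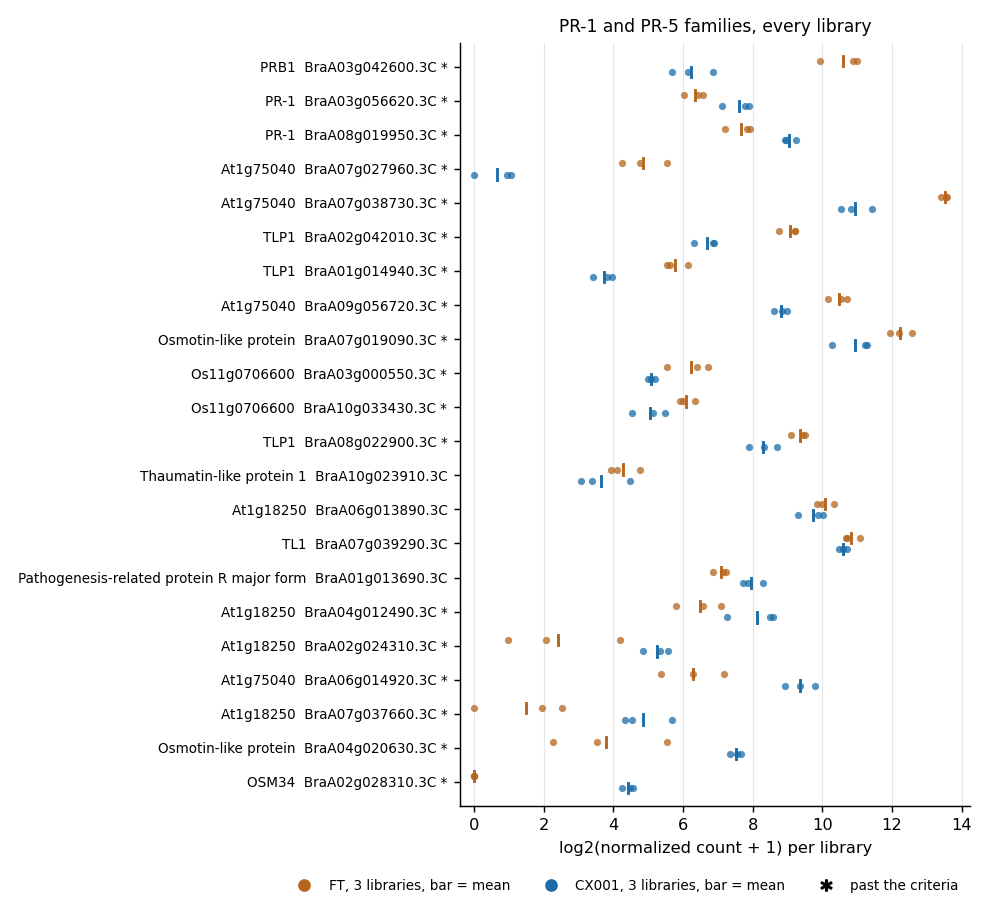
Log2(normalized count + 1) of the 3 tested PR-1 and 19 tested PR-5 genes in every library; points are libraries, bars are means of 3 libraries and asterisks mark genes past the criteria. *PRB1* and the *PR5* copy on A07 are lower in ‘CX001’, while the *PR5* copy on A06, an osmotin-like gene and *OSM34* are higher.

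Chitinases cut the chitin of fungal walls, and the chitinase-like CTL proteins act in cellulose deposition instead. Of 13 tested genes, 2 were higher (15.4%) and 4 lower (30.8%), beside 14.5% and 16.1% of all tested genes. The most read chitinase proper, *CHB4* (*BraA09g018740.3C*, A09:11994852-11995941, plus strand), matched to a basic endochitinase of *Brassica napus*, was at 4909.7, 5512 and 3160.3 in ‘FT’ and 1294, 2548 and 1455 in ‘CX001’ (log2 fold change -1.38 ± 0.29, adjusted p = 0.00531). *CHI* (*BraA03g022840.3C*) was at 435, 247 and 325 against 113, 60.8 and 180.0 (log2 fold change -1.59 ± 0.39, adjusted p = 0.00987). In both the lines were apart.

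The other *CHI* gene, *BraA05g003680.3C*, was at 799, 386 and 517 against 334, 338 and 922, so that the lines overlapped, and did not pass (log2 fold change -0.20 ± 0.42, adjusted p = 0.709). *PR-P2* (*BraA03g031830.3C*), a PR-4 type protein named after tomato, rose from 6.74, 6.74 and 10.5 to 51.9, 38.6 and 83.6 (log2 fold change 2.67 ± 0.39, adjusted p = 0.000913). Below a mean of 50 in both lines, *EP3* (*BraA09g045350.3C*), a class IV chitinase, and a gene matched to At2g43620 (*BraA05g003700.3C*) were lower. *CTL2* (*BraA05g030390.3C*) had 0 reads in ‘FT’ and 13.2, 21.2 and 76.1 in ‘CX001’, at least 34.9-fold higher. *CTL1*, the most read gene of the family, was at 6416, 5556 and 7957 against 7957, 8467 and 11810.0 in *BraA08g034170.3C*, which did not pass (log2 fold change 0.50 ± 0.21, adjusted p = 0.0765). The second *CTL1* gene, *BraA10g004600.3C*, was too abundant to be solved, with the authors' means at 20985 in ‘FT’ and 27699 in ‘CX001’. Xylem markers were also higher in ‘CX001’ (above), and their part in the levels of the *CTL* genes was not tested.

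The beta-1,3-glucanases were the largest family, with called genes in both directions. Of 58 tested members, 11 were higher (19.0%) and 7 lower (12.1%), beside 14.5% and 16.1% of all tested genes, and 40 did not pass. The family sum per kb overlapped between the lines, at 28481 to 37323 in ‘FT’ and 31435 to 40560 in ‘CX001’. Its most read genes were among those that did not pass. They include *BraA07g007140.3C* (At2g01630) at 5183 to 6144 against 4064 to 5093, and *BraA07g020840.3C* (At5g42100), matched to a plasmodesmal callose-degrading enzyme, at 4013 to 5983 against 4858 to 7488.

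The PR-2 type glucanases matched to *BG2*, *BG3* and *BGL* were lower in ‘CX001’ at 1 copy each. *BG2* (*BraA09g047910.3C*), the PR-2 protein of *Arabidopsis*, fell from 46.2, 31.8 and 44.3 to 10.4, 0.965 and 11.8 (log2 fold change -2.65 ± 0.70, adjusted p = 0.0146). A *BG3* gene, *BraA07g022770.3C*, fell from 362, 194 and 222 to 18.9, 14.5 and 25.7 (log2 fold change -3.64 ± 0.33, adjusted p = 7.38e-05). *BGL* (*BraA07g038740.3C*) was at 32.7, 25 and 20 in ‘FT’ and 0 in all 3 ‘CX001’ libraries, at least 24.2-fold lower. It is the neighbour of the main *PR5* gene on A07, on the same strand, and both genes of this pair were lower. The most read *BGL* gene, *BraA04g003370.3C*, was at 423, 171 and 336 against 547, 325 and 683 and did not pass (adjusted p = 0.119).

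A *BG3* copy on A04, *BraA04g003450.3C*, showed the reverse, with 0 reads in ‘FT’ and 15.1, 27.0 and 38.6 in ‘CX001’, at least 25.5-fold higher. The A07 copy supplied 76.5% ± 6.2 of the 3 *BG3* genes per kb in ‘FT’ and 19.9% ± 2.6 in ‘CX001’, and the sum of the 3 was 328 ± 85 against 97.8 ± 31.1. *BG5* (*BraA02g024430.3C*, A02:14473651-14474938, minus strand) showed the largest rise of any tested member. It had 1.92, 0.963 and 2.11 normalized counts in ‘FT’ and 241, 224 and 192 in ‘CX001’ (log2 fold change 6.39 ± 0.33, adjusted p = 6.1e-06), a 131-fold ratio of the means.

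Glucanases with other matches changed in both directions. *BraA02g011800.3C* (At5g58090) fell from 456, 371 and 509 to 21.7, 12.5 and 38.6 (log2 fold change -4.27 ± 0.38, adjusted p = 6.75e-05). *BraA08g032600.3C* (At1g11820) fell from 141, 148 and 187 to 12.3, 6.76 and 20.4 (log2 fold change -3.61 ± 0.39), and *BraA04g009670.3C*, with the same match, fell by 1.52 ± 0.22. A gene matched to At4g34480, *BraA09g010430.3C*, had 94 reads in ‘FT’ and 0 in ‘CX001’. Among those higher, *BraA08g023580.3C* (At1g32860) rose from 25.0, 27.0 and 24.2 to 157, 182 and 133 (log2 fold change 2.57 ± 0.24, adjusted p = 8.65e-05). *BraA05g033550.3C* (At3g13560), the most read of the higher genes, rose from 912, 951 and 1419 to 3017, 3739 and 2477 (log2 fold change 1.5 ± 0.21). The genes *BraA07g024880.3C* (At4g29360), *BraA01g006680.3C* (At4g31140) and *BraA10g013180.3C* (At2g01630) were also higher, by 3.39, 2.02 and 1.76 on the log2 scale. One gene rested on a single library. *BraA01g020550.3C* (At4g16260) was at 154 in library c of ‘CX001’ and at 0 in the other 5, and it did not pass (adjusted p = 0.282).

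**Figure D4:**
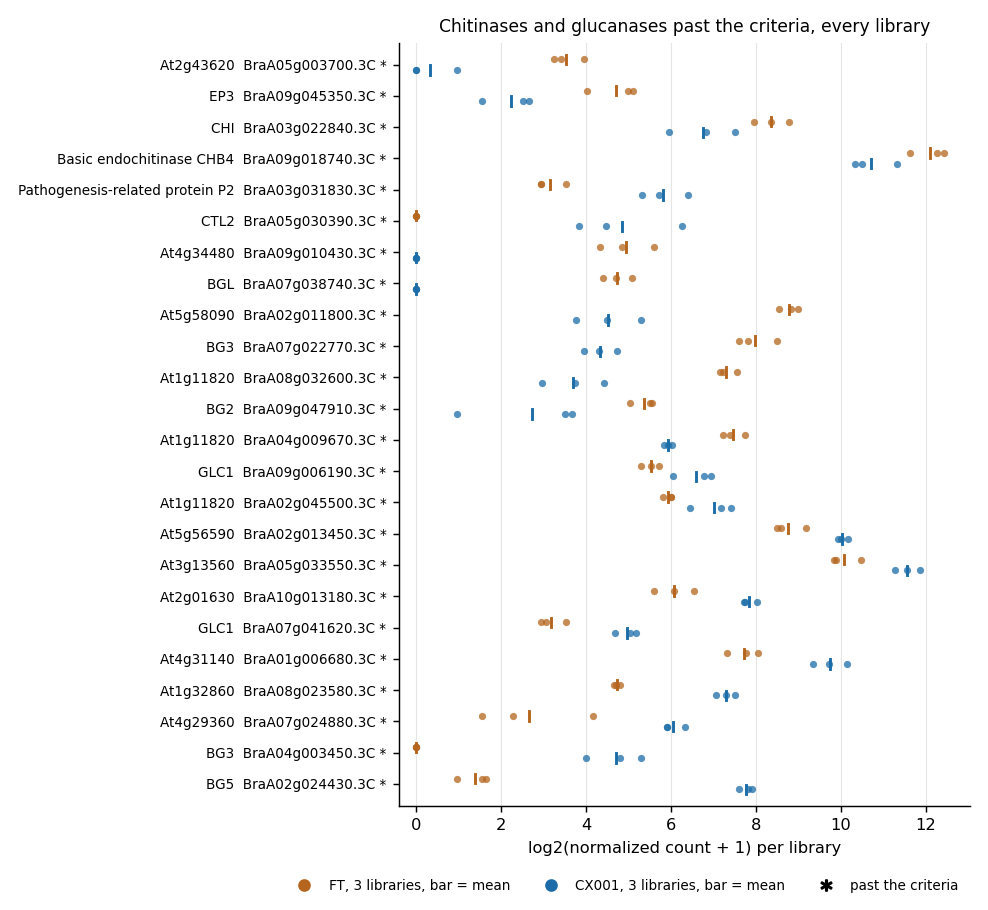
Log2(normalized count + 1) of the 6 chitinase and 18 glucanase genes past the criteria in every library; points are libraries and bars are means of 3 libraries. The libraries of the lines do not overlap in any of them, which selection by the criteria favours. *BG5* has the widest gap upward in ‘CX001’, and *BGL* and a gene matched to At4g34480 are at 0 there.

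The 2 PR homeodomain genes, transcription factors named for binding a PR promoter in parsley, overlapped between the lines. *BraA08g018310.3C* was at 192, 294 and 124 in ‘FT’ and 319, 342 and 294 in ‘CX001’, which missed the threshold (log2 fold change 0.73 ± 0.29, adjusted p = 0.0658). It passed without library b of ‘FT’, with an adjusted p of 0.0119. *BraA01g007730.3C* was at 83.7 to 109 against 90 to 162 (adjusted p = 0.255).

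Many of these genes are copies that share a best match, as *B. rapa* descends from a hexaploid ancestor. There were 29 matches with at least 2 tested copies. In 18 of them (62.1%) a called copy stood beside one that did not pass, in 4 (13.8%) a higher copy stood beside a lower one, in 3 (10.3%) all tested copies were called in the same direction, and in 6 (20.7%) none was called. Over the 5672 matches of the whole table with at least 2 tested copies, these shares were 45.3%, 7.76%, 5.91% and 46.0%, with a median of 2 tested copies a match against 3 for the members. The summed level of the copies did not overlap between the lines in 14 of the 29 (48.3%), beside 58.4% over the whole table. Reads shared by near-identical copies can be split in ways that the counting, whose settings are not given in the sources used here, decides.

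**Figure D5:**
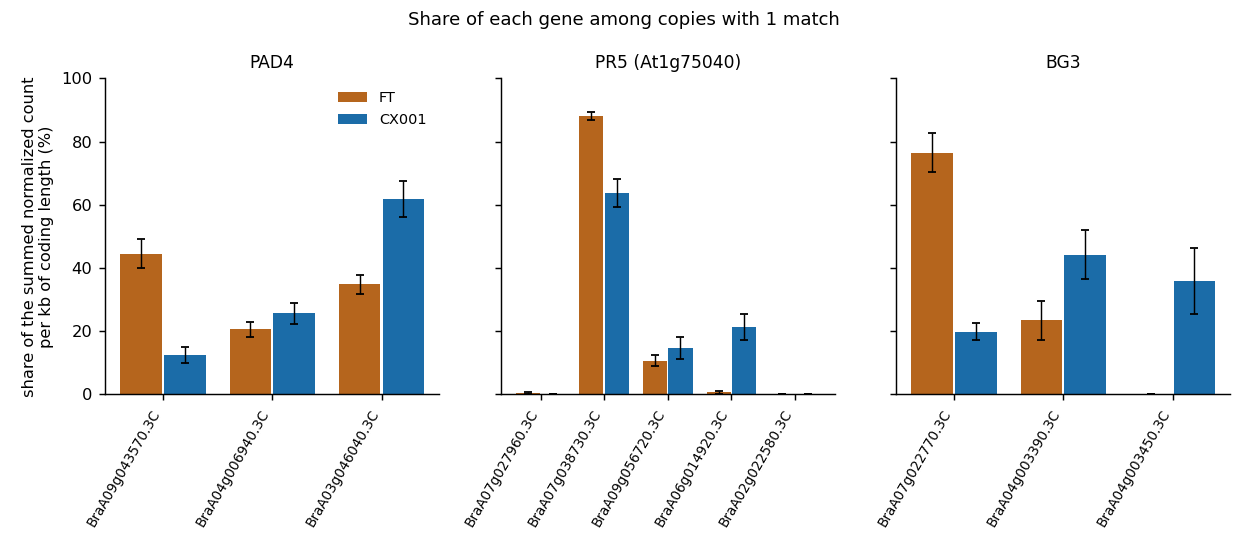
Share (%) of each gene in the summed normalized count per kb of coding length of the copies with the same match, for *PAD4*, *PR5* and *BG3*; bars are means of 3 libraries and error bars are SD. The main copy of ‘FT’ (*PAD4* on A09, *PR5* on A07 and *BG3* on A07) has a smaller share in ‘CX001’ in each of these 3 panels. Among matches not shown, its share is smaller in some, as *ICS1*, and larger in others, as *EDS1B*, *NPR3* and *CHI*.

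Presence of reads also differed. Of the 152 members, 23 (15.1%) were at 0 in all libraries of ‘FT’ and read in ‘CX001’, and 11 (7.24%) the other way round. Of all genes of the table, 8.43% were at 0 in ‘FT’ and 5.59% in ‘CX001’. Most of these members had few reads in the other line, and only *OSM34*, *CTL2*, *BGL*, the A04 copy of *BG3* and *BraA09g010430.3C* were among the called genes. Members lying within 5 genes of each other formed 11 runs holding 29 members. Of these runs, 4 held no called gene. Only the pair of *PR5* and *BGL* on A07 held more than a single called gene, both lower. The other runs could therefore not hold called genes of both directions. A run of 6 chitinases on A03 held a single called gene, *CHI*, lower in ‘CX001’, beside 3 tested genes that did not pass.

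The spread between libraries was wider for these genes than for most. The median SD on the log2 scale was 0.27 in ‘FT’ and 0.38 in ‘CX001’ for the tested members, against 0.23 and 0.26 for all tested genes. In ‘CX001’ it was 0.55 for chitinases and 0.23 for the NPR genes.

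Other genes of the salicylic acid pathway were looked up by name to set the members in context. The list of 34 names found 90 genes of 30 names, of which 71 were tested, 5 higher in ‘CX001’ (7.04%) and 26 lower (36.6%), beside 14.5% and 16.1% of all tested genes. Their median log2 fold change was -0.69, against 0.00 for all tested genes.

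Activators upstream of *ICS1* were lower at 1 copy each, of 2 tested. The transcription factor gene *CBP60G* (*BraA06g033590.3C*) fell from 36.6, 42.4 and 86.4 to 8.49, 1.93 and 6.43 (log2 fold change -3.14 ± 0.55), and its relative *SARD1* (*BraA07g037800.3C*) by 2.68 ± 0.86. The call of *SARD1* was lost without library a or c of ‘FT’ or b of ‘CX001’, with adjusted p of up to 0.112. *GH3.12* (*BraA10g025440.3C*), also called PBS3, which conjugates isochorismate to glutamate, fell from 1188, 1384 and 1531 to 269.9, 323 and 418 (log2 fold change -2.03 ± 0.18, adjusted p = 7.15e-05). Phenylalanine ammonia-lyase is the entry to the alternative route to the hormone. Of 7 tested *PAL* genes 0 were higher, 2 were lower (28.6%, beside 16.1% of all tested genes) and 5 did not pass. The lower ones were a *PAL3* gene (*BraA02g001320.3C*, log2 fold change -1.34 ± 0.32) and a *PAL2* gene (*BraA04g006280.3C*), from 1603, 1389.5 and 2062 to 150.1, 102 and 325 (log2 fold change -3.27 ± 0.38, adjusted p = 0.000265). The most read *PAL* genes overlapped between the lines, at 3927 to 6192 against 2842 to 6260 in *PAL1* (*BraA05g008320.3C*) and 2429 to 4288 against 2827 to 5350 in *BraA04g026260.3C*. So did the other *PAL2* genes, at 299 to 874 against 462 to 1359 in *BraA07g021160.3C* and 1357 to 2423 against 677 to 2363 in *BraA09g044270.3C*. The single gene for EDS5, the plastid exporter, did not pass.

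Among genes that turn the hormone over, both *DMR6* genes, for a salicylate hydroxylase, passed as lower. Of these, *BraA06g031900.3C* fell from 1014, 1002 and 1167 to 192, 179 and 205 (log2 fold change -2.46 ± 0.13, adjusted p = 6.26e-06). The 3 tested *DLO1* genes and the 1 *DLO2* gene, also listed as salicylate hydroxylases, did not pass. Of 13 genes matched to *BSMT1*, a methyltransferase for salicylic acid, 8 were tested. Of these, 4 were lower (50%), 1 was higher (12.5%) and 3 did not pass, beside 16.1% lower and 14.5% higher among all tested genes. *BraA10g031930.3C* fell from 675, 289.8 and 169.7 to 8.49, 8.69 and 3.21, and *BraA02g015210.3C* and *BraA02g015220.3C* had 0 reads in ‘CX001’. The latter 2 are neighbours on the plus strand of A02, with coding lengths of 432 and 480 bp. They are counted as separate genes in these shares, and whether they are parts of 1 gene was not tested. *ALD1* (*BraA03g042430.3C*), which starts the synthesis of pipecolate, a metabolite of systemic immunity, fell by 4.17 ± 0.79 on the log2 scale. Of the genes listed with it, the 1 *SARD4* gene did not pass, and the 3 *FMO1* genes were not tested. The 5 pathway genes that were higher in ‘CX001’ were single copies of *BSMT1*, *GH3.12*, *UGT74F2*, *TGA1* and *TGA4*.

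Partners of NPR1 and WRKY factors included called and uncalled genes. *NIMIN-1* (*BraA03g029470.3C*), a binding protein of NPR1, fell from 336, 194 and 114 to 28.3, 26.1 and 23.6 (log2 fold change -2.86 ± 0.38, adjusted p = 0.00055). The TGA factors, which carry NPR1 to PR promoters, were mixed. Copies of *TGA1* and *TGA3* were lower, copies of *TGA1* and *TGA4* higher, and 10 of 14 tested genes did not pass. The shares were 14.3% higher and 14.3% lower, near those of all tested genes. Of 12 tested WRKY factor genes matched to *WRKY18*, *WRKY40*, *WRKY54* and *WRKY70*, 6 were lower, 0 higher and 6 did not pass, beside 16.1% lower and 14.5% higher among all tested genes. The lower ones include both called *WRKY70* genes at log2 fold changes of -1.90 ± 0.55 and -1.53 ± 0.35. The former, *BraA04g004020.3C*, missed the threshold without library c of ‘FT’ (adjusted p = 0.0858). Of 8 tested genes of senescing tissue, 0 were higher and 4 lower in ‘CX001’. The lower ones were 2 copies each of *SAG20* and *SGR1*. No *SAG12* or *NAC029* gene was called, and *SAG13* was not tested. The part of senescing tissue in the levels of the pathway genes was not tested.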

How the data were processed

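Stem RNA of ‘FT’ and ‘CX001’ was sequenced on an Illumina instrument. Per the methods, the authors cleaned the reads and used HISAT2 for alignment and DESeq2 for the comparison. The processing notes also name TopHat2. The methods also name StringTie for assembling transcripts and for expression levels as FPKM. Which tool made the counts behind the deposited means is not stated in the sources used here. Gene IDs and coordinates are those of the *B. rapa* V3.0 annotation. The deposited signal values are the authors' means over 3 libraries of counts divided by size factors. The fold changes, p-values and regulation calls of the authors in the same table were not used.

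Whole counts per library were solved from the means (written to 15 significant digits). Exactly 1 solution was found for 33047 genes in ‘FT’ and 33045 in ‘CX001’. Means above 20000 were not attempted, and 55 genes were left out. Size factors recomputed from the solved counts of 25048 genes matched the steps within a ratio of 0.9996 to 1.0006. The letters a to c do not correspond to numbers of the study.

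Differences were tested two-sided with limma 3.58.1 (trend, R 4.3.3) on log2(normalized count + 1), with Benjamini-Hochberg adjustment over 25938 genes. A fold change on this scale understates that of low genes. Exact permutation of single genes cannot go below p = 0.1 with 3 libraries against 3. On counts simulated for 25239 genes at a single dispersion, only genes with a mean of at least 50 were changed. Of these, 47 of 100 changed 2-fold and 100 of 100 changed 4-fold passed the adjusted p, as did 8 unchanged genes. The fold minimum was not applied, and far fewer genes were changed than were called in the data. These shares therefore do not give the power for the members. Members and lists were chosen with earlier results of these data known. Named were tested regulators and PR-1 genes, and in other families the 2 most read members and up to 6 called members per direction with a mean of at least 50. Other pathway genes were picked for naming if called, but not all called ones are described above. Of 3 tested *NDR1* genes, for example, 2 were lower. Some uncalled pathway genes, as those of *PAL*, are described as well. Named members under a mean of 50, and other members singled out, were chosen after their values were seen. Python 3.11.15, numpy 2.4.6, pandas 2.3.3, scipy 1.17.1, numba 0.67.0 and matplotlib 3.10.9 were used. Lengths are coding lengths, since all are multiples of 3. No sequences are shown, as no genome of this build was used here.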

Additional observations from a re-analysis of the deposited data

How the results depend on the processing

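All 46 called members kept their call and direction with a pseudocount of 0.5, without the filter, with scaling by library total and with limma voom. The last 2 alternatives were chosen after seeing the data. A pseudocount of 5 kept 45. With a minimum mean of 50, 33 of the 46 stayed tested and all kept their call. Leaving out single libraries kept 40 to 44 of the 46 calls, with the fewest kept without library c of ‘FT’. It gave 19 to 23 higher and 20 to 24 lower members, and the median log2 fold change of members ranged from -0.0507 to 0.18. Without the filter this median was 0.21. Other pathway genes numbered 3 to 6 higher and 21 to 30 lower when single libraries were left out. A log2 minimum of 2 left 13 higher members. A minimum mean of 50 left 2 higher pathway genes. Scaling by library total moved the median of all genes to -0.059. A check gene by gene covered 82 named genes. Other called members described above were not in it, among them *BG2*, *OSM34*, *CTL2*, *EP3*, *BraA07g038740.3C*, *BraA04g003450.3C*, *BraA10g033430.3C* and *BraA09g010430.3C*. Which of those lost their call is not given here. Of the 82, 70 kept their call under every alternative in which they were tested, 12 did not, and 0 reversed. The 12 are the members *BraA03g000550.3C*, *BraA04g012490.3C*, *BraA07g019090.3C* and, gaining a call without library b of ‘FT’, *BraA08g018310.3C*, and pathway genes matched to *NIMIN-2*, *SARD1*, *TGA1* (higher copy), *TGA3*, *UGT74F2* (lower copy), *WRKY18*, *WRKY54* and *WRKY70*. The cause was not tested. No paired analysis was possible because the solved libraries carry no replicate numbers. The count models were planned for counts deposited as such, and the deposited table holds means. They and TMM scaling were therefore not run, although limma voom was run on the solved counts. The number of libraries limits the precision, and at this depth a line at 0 allows up to 3 counts.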
